A study of Mus musculus with 8 samples.

Results

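The genes described here are 8 that govern how macrophages take up, store, release and export iron: Tfrc, Slc11a1, Slc11a2, Fth1, Ftl1, Ncoa4, Slc40a1 and Cp. They were chosen by symbol from the 24421 gene symbols counted in every library, with no threshold on a measured value, and all 8 were present and passed the filter on low counts that left 13821 genes to be tested. RNA sequencing had been done on primary mouse macrophages of wild-type mice (WT, 3 libraries), of mice labelled LysM-DKO (3 libraries) and of mice labelled ABCG1KO (2 libraries), and every mouse had a normal diet. The series' design text names an epsin double knockout, read here as the LysM-DKO group, and LysM is the older name of the lysozyme gene Lyz2, whose locus commonly drives Cre recombinase in myeloid cells. The labels give no strain, sex, age, allele or tissue of origin, and do not say whether the libraries of a group came from separate animals, so the p-values measure the spread between these libraries.

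Macrophages receive iron from plasma transferrin and from the breakdown of engulfed red blood cells, and return most of it to the circulation. Iron enters through the transferrin receptor, crosses endosomal and phagosomal membranes through divalent metal transporters, is held inside ferritin shells made of heavy and light chains, is freed when the receptor NCOA4 carries ferritin to lysosomes, and leaves through ferroportin. Many of these messengers carry a short hairpin, the iron-responsive element, to which iron regulatory proteins bind when iron is scarce: at the 5′ end of a messenger this blocks translation, and at the 3′ end of the transferrin receptor messenger it protects the RNA from decay. Transcript counts therefore bear on the amount of messenger, not of protein, and for ferritin and ferroportin the translational control is not visible in them.

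The hairpin is shown because it is the site through which iron regulatory proteins are known to act on several of the members. In the transcripts of GENCODE M21 (build GRCm38, the same as mm10), UTRs were searched on the sense strand for the loop CAGTGN flanked on each side by 5 bases that pair across it (G·U pairs allowed), with a C before the first of them. It was found in Tfrc, Slc40a1, Fth1 and Ftl1. Each line gives 30 bases 5′ to 3′ with the loop in capitals.
Tfrc 3′ UTR, site a (chr16:32631219-32631248, + strand): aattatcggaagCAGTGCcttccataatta
Tfrc 3′ UTR, site b (chr16:32631598-32631627, + strand): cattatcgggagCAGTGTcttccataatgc
Tfrc 3′ UTR, site c (chr16:32631663-32631692, + strand): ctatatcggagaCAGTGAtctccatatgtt
Tfrc 3′ UTR, site d (chr16:32631710-32631739, + strand): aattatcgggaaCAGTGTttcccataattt
Slc40a1 5′ UTR (chr1:45925464-45925493, − strand): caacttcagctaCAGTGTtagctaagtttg
Fth1 5′ UTR (chr19:9982732-9982761, + strand): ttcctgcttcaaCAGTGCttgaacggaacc
Ftl1 5′ UTR (chr7:45459778-45459807, − strand): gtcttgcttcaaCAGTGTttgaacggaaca

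The same rule found a hairpin in the 5′ UTR of 19 of 21745 genes (0.0874%), among them Alas2, the erythroid enzyme that starts heme synthesis. Among genes with a 3′ UTR at least as long as that of Tfrc, 1.08% held the motif in its first 2458 bases. Of genes with a 5′ UTR at least as long as that of Fth1, 0.11% held it in the first 224 bases. Tfrc and Fth1 are themselves counted in these shares. No match was found in Slc11a1, Slc11a2, Ncoa4 or Cp, which says only that these letters in this pairing are not in the annotated UTRs searched.

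The libraries held 29567615 to 41888516 counts that were assigned to genes. In both ABCG1KO libraries 10.2% to 13.8% of counted reads fell outside annotated genes and 6.74% to 6.93% aligned to several places, against at most 6.07% and 3.01% in the other 6. Macrophage markers were high in all libraries: the summed level of 10 genes was 18807 to 21763 CPM (the library's counts relative to its TMM-scaled total) in WT, 11558 to 13879 in LysM-DKO and 19121 to 22800 in ABCG1KO, and erythroid markers summed to at most 0.469 CPM. Lyz2 made up most of the macrophage sum, with 13004 to 15710 CPM in WT, 6177 to 8105 in LysM-DKO and 11237 to 14412 in ABCG1KO. None of the 10 macrophage markers was called in LysM-DKO against WT, where Lyz2 stood at 46.8% of the WT level (log2 difference -1.09, SE 0.202). In ABCG1KO, Adgre1, Csf1r and Cd14 rose and Cd68 fell from 2377 to 1143 CPM. Mast cell markers summed to 0.181 to 3.12 CPM in WT, 0.121 to 0.561 in LysM-DKO and 8.07 to 46.6 in ABCG1KO, and the 6 hepatocyte markers to 7.15 to 11.4 in ABCG1KO, nearly all of it Ttr. Stromal and mesothelial markers summed to 792 to 919 CPM in WT, 683 to 1720 in LysM-DKO, and 166 and 1208 in ABCG1KO 1 and 2, and B cell markers to 6.57 to 34.2, 1.5 to 4.02 and 3.51 to 21.4 CPM in the same order of groups. The part of other cells in the members' values was not tested. Xist, transcribed from the inactive X chromosome, was 79.1 to 200 CPM in WT, 0 in both ABCG1KO libraries and 0.0485 in LysM-DKO 1, and the Y-linked Ddx3y was 81.6 to 94.8 CPM in those 3 libraries, so genotype and sex cannot be told apart between ABCG1KO and WT. Abcg1 was 385 CPM in WT and 66.9 in ABCG1KO, a called difference. Epn1 was 208 CPM in WT and 169 in both LysM-DKO and ABCG1KO, and Epn2 was 7.34, 8.40 and 18.5 CPM. Neither epsin gene was called against WT, so the epsin counts give no check of the LysM-DKO label. The labels do not give the deleted exons. In bulk RNA, fewer cells of a type and less RNA per cell cannot be told apart.

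The ferritin genes were far more abundant than the other members. Per kb of messenger, WT means were 19414 CPM per kb for Fth1, the ferritin heavy chain that oxidises iron for storage, and 17473 for Ftl1, the light chain that helps nucleate the mineral core, against 317 for Slc11a1 and 104 for Ncoa4. Tfrc followed at 78.7 CPM per kb, Slc11a2 at 42.8, Slc40a1 at 18.6 and Cp at 1.37. Neighbours in this order overlapped across the WT libraries for Fth1 and Ftl1 and for Ncoa4 and Tfrc, and did not for Slc11a1 against Ncoa4, Tfrc against Slc11a2, Slc11a2 against Slc40a1 or Slc40a1 against Cp. In the ABCG1KO libraries Ncoa4 stood below both Slc11a2 and Tfrc, at 8.81 CPM per kb. Together Fth1 and Ftl1 took 3.00% to 3.51% of the counts in genes in WT, 2.30% to 2.90% in LysM-DKO and 1.77% to 1.86% in ABCG1KO.

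**Figure D1:**
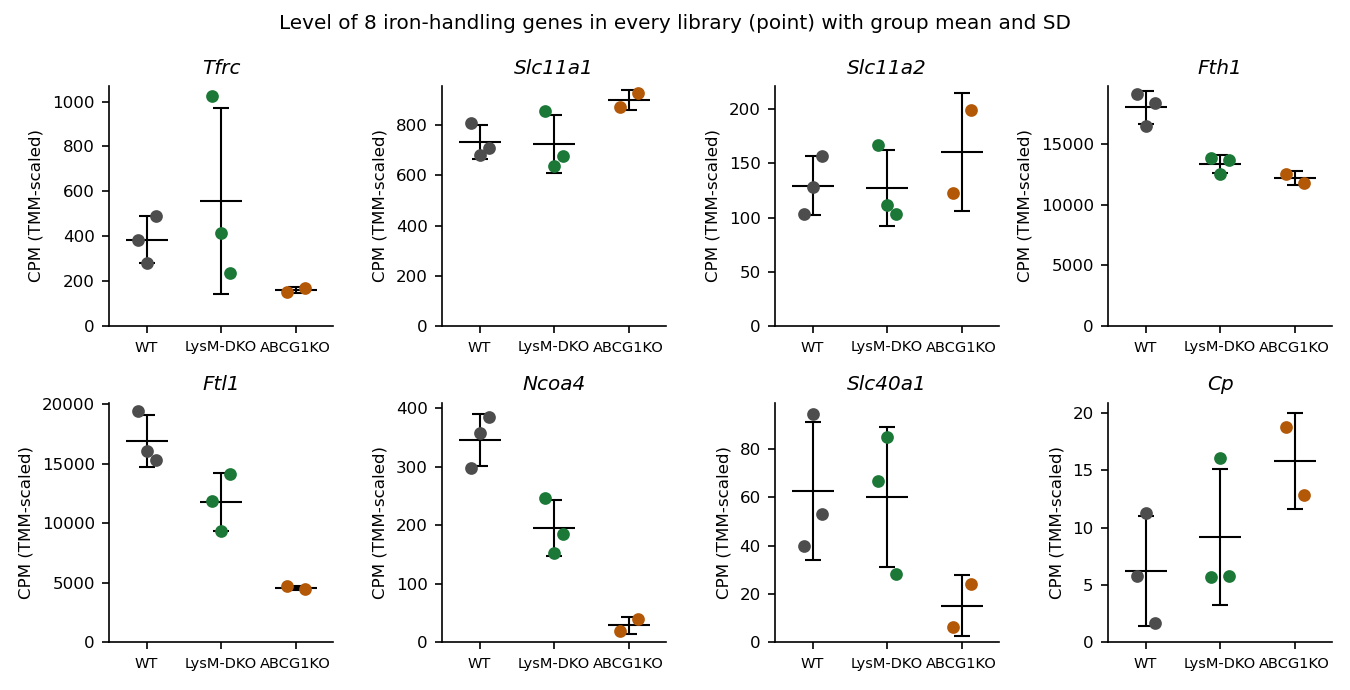
Level of each of the 8 genes in every library (points; CPM scaled by TMM factors, linear axis from 0), with the group mean and SD, for WT, LysM-DKO and ABCG1KO. Ncoa4 and Ftl1 are lowest in both ABCG1KO libraries, and the Tfrc value of LysM-DKO 1 stands above all others.

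Between LysM-DKO and WT, no member passed edgeR's quasi-likelihood test at a Benjamini-Hochberg adjusted p of 0.05, and 0.0362% of all genes tested did (0.0217% higher and 0.0145% lower). At an unadjusted p of 0.05, 3 members and 1611 genes were under the threshold. In the comparison of ABCG1KO with WT, Ftl1 and Ncoa4 fell and no member rose, 2 of 8 called, where 16% of all genes were called, 8.83% lower and 7.21% higher. In the comparison of LysM-DKO with ABCG1KO, the same 2 genes were higher in LysM-DKO, where 13.4% of all genes were called, 7.76% higher and 5.64% lower. Each pair of comparisons shares the libraries of 1 group. CPM ranges did not overlap for 3 members in LysM-DKO against WT (21% of all genes), for 7 in ABCG1KO against WT (48.2%) and for 5 in LysM-DKO against ABCG1KO (48.2%).

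The transferrin receptor gene Tfrc (chr16:32608920-32632794), which brings in iron-loaded transferrin, measured 384, 279 and 490 CPM in WT, 1026, 416 and 234 in LysM-DKO and 150 and 171 in ABCG1KO. Both ABCG1KO libraries were below all the others, while the LysM-DKO libraries ran from below the lowest WT library to above the highest. The log2 difference of LysM-DKO from WT was 0.54 (SE 0.488, adjusted p = 0.673 by edgeR's quasi-likelihood test), and without LysM-DKO 1, the library with Y-linked transcripts, it was -0.26. ABCG1KO differed from WT by -1.26 (SE 0.568, adjusted p = 0.172, same test), a level of 41.7% that was not called. It was called when LysM-DKO 1 was left out of the fit (adjusted p = 0.0404 by edgeR) and when only those 2 groups were fitted (adjusted p = 0.0315 by edgeR), with log2 differences of -1.26 in both.

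Slc11a1 (chr1:74375195-74386062), also called NRAMP1, pumps metal ions out of the phagosome of macrophages and was the most abundant transporter among the members. Its level was 811, 681 and 708 CPM in WT, 855, 639 and 678 in LysM-DKO and 874 and 929 in ABCG1KO. The ABCG1KO libraries were above every other library, and LysM-DKO overlapped WT. Log2 differences from WT were 0.30 (SE 0.179, adjusted p = 0.293 by edgeR) in ABCG1KO and -0.02 (SE 0.161, adjusted p = 0.975) in LysM-DKO. Scaled by library size alone the ABCG1KO value was 0.53 (adjusted p = 0.0486 by edgeR), under a scaling that also moved the median of all genes to 0.25.

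Slc11a2 (chr15:100387898-100425072), or DMT1, moves ferrous iron out of endosomes into the cytosol. Levels were 104, 128 and 157 CPM in WT, 167, 111 and 103 in LysM-DKO and 122 and 199 in ABCG1KO, and the ranges of the 3 groups overlapped. The log2 difference from WT was 0.31 (SE 0.288, adjusted p = 0.499 by edgeR) in ABCG1KO, resting on ABCG1KO 2: without it the value was -0.089. In LysM-DKO the difference was -0.03 (SE 0.260).

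The ferritin heavy chain gene Fth1 (chr19:9980598-9985098) measured 19165, 16517 and 18424 CPM in WT, 13833, 12545 and 13720 in LysM-DKO and 12573 and 11762 in ABCG1KO. Every library of either knockout label lay below the lowest WT library. LysM-DKO had 74.1% of the WT level (log2 difference -0.43, SE 0.167, adjusted p = 0.394 by edgeR) and ABCG1KO had 67.5% (-0.57, SE 0.190, adjusted p = 0.0783 by edgeR), and neither was called. With DESeq2 both were called, at adjusted p-values of 0.0242 and 0.000882, and over all alternatives the adjusted p (edgeR or DESeq2) ran from 0.0242 to 0.720 in LysM-DKO and from 0.000882 to 0.213 in ABCG1KO. Between the 2 knockout labels Fth1 ranges overlapped and the difference was 0.14 (SE 0.187).

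The ferritin light chain gene Ftl1 (chr7:45457944-45459884) measured 19380, 16078 and 15284 CPM in WT, 11886, 9346 and 14170 in LysM-DKO and 4696 and 4454 in ABCG1KO. No groups overlapped: every LysM-DKO library lay between the lowest WT and the highest ABCG1KO library. In ABCG1KO, Ftl1 fell to 27% of the WT level, 3.70-fold lower (log2 difference -1.89, SE 0.251, adjusted p = 0.0025 by edgeR), in 2 of 2 libraries. LysM-DKO stood at 69.8% of WT (-0.52, SE 0.209, adjusted p = 0.409 by edgeR), which was not called, and was 2.58-fold above ABCG1KO (1.37, SE 0.245, adjusted p = 0.0108 by edgeR), a call lost without ABCG1KO 1 (1.40, adjusted p = 0.0798 by edgeR).

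The ferritin chains stood at different distances from WT. The ratio of Fth1 to Ftl1 counts was 0.989, 1.03 and 1.21 in the WT libraries, 1.16, 1.34 and 0.968 in LysM-DKO and 2.68 and 2.64 in ABCG1KO. The ratio in ABCG1KO lay above all the other libraries, and LysM-DKO overlapped WT. The log2 ratio was 1.31 higher in ABCG1KO than in WT (exact two-sided permutation test, p = 0.1, the smallest possible with 3 and 2 libraries), and 0.10 higher in LysM-DKO than in WT (exact permutation p = 0.7). The ratio is one of counts, and the share of sequence that Ftl1 has in common with other loci is given further on.

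**Figure D2:**
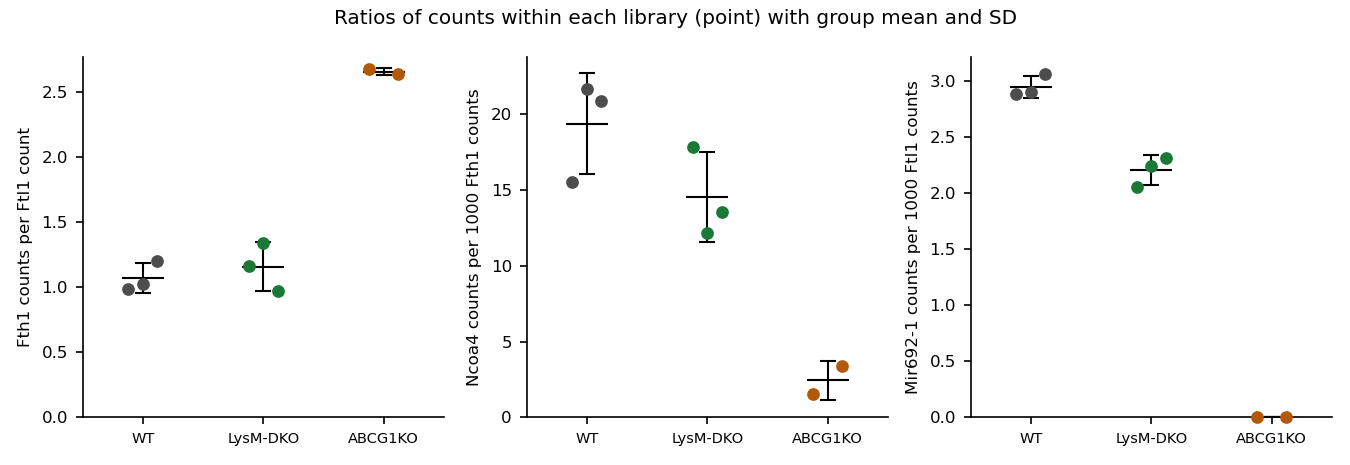
Count ratios within each library (points) with the group mean and SD, for Fth1 to Ftl1, Ncoa4 per 1000 Fth1 counts and Mir692-1 per 1000 Ftl1 counts. The Fth1 to Ftl1 ratio is 2.68 and 2.64 in the ABCG1KO libraries and at most 1.34 elsewhere.

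Ncoa4 (chr14:32159865-32179855) encodes the receptor that delivers ferritin to lysosomes so that its iron can be released. It measured 298, 358 and 384 CPM in WT, 247, 153 and 186 in LysM-DKO and 19.4 and 39.5 in ABCG1KO, and the 3 groups did not overlap. In ABCG1KO it fell to 8.51% of the WT level, 11.8-fold lower (log2 difference -3.55, SE 0.364, adjusted p = 0.00064 by edgeR), the widest difference from WT among the members in either knockout label. LysM-DKO stood at 56.3% of WT (-0.83, SE 0.279, adjusted p = 0.354 by edgeR), not called, and 6.62-fold above ABCG1KO (2.73, SE 0.348, adjusted p = 0.00237 by edgeR). Relative to the ferritin heavy chain, Ncoa4 counts were 15.5, 21.7 and 20.9 per 1000 Fth1 counts in WT, 17.8, 12.2 and 13.5 in LysM-DKO and 1.54 and 3.36 in ABCG1KO. All these values are of counts, and the share of sequence that Ncoa4 has in common with another locus is given further on. Among the 3 libraries with Y-linked transcripts, LysM-DKO 1 held 247 CPM of Ncoa4 and 11886 of Ftl1, above both ABCG1KO libraries. Without that library the LysM-DKO differences from WT were -1.05 for Ncoa4, -0.54 for Ftl1 and -0.47 for Fth1, and none was called. LysM-DKO 1 is 1 library of another label than ABCG1KO, and the part of sex in these values was not tested.

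Ferroportin, encoded by Slc40a1 (chr1:45908068-45926523), is the known exporter of iron from cells. Its level was 40.01, 94.5 and 53.1 CPM in WT, 66.5, 85.0 and 28.3 in LysM-DKO and 6.21 and 24.1 in ABCG1KO. Both ABCG1KO libraries were below the lowest WT and LysM-DKO libraries, and ABCG1KO 1 was the lowest of all. The log2 difference of ABCG1KO from WT was -2.04 (SE 0.703, adjusted p = 0.0905 by edgeR), with -3.34 without ABCG1KO 2 and -1.38 without ABCG1KO 1. DESeq2 called it (adjusted p = 0.00395). LysM-DKO differed from WT by -0.06 (SE 0.579, adjusted p = 0.977 by edgeR), a sign that turned without WT 2 (0.34) or LysM-DKO 3 (0.28).

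The balance of export to uptake transcripts, Slc40a1 over Tfrc counts, was 0.104, 0.339 and 0.108 in WT, 0.0649, 0.205 and 0.121 in LysM-DKO and 0.0413 and 0.141 in ABCG1KO. The 3 groups overlapped, with WT 2 the highest library and ABCG1KO 1 the lowest. The difference in log2 ratio from WT was -0.42 in LysM-DKO and -1.03 in ABCG1KO (exact permutation p = 0.7 and 0.6).

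Cp (chr3:19957054-20009145), ceruloplasmin, a copper oxidase that oxidises exported iron, was low: 5.80, 11.2 and 1.71 CPM in WT, 5.69, 16.1 and 5.82 in LysM-DKO and 18.8 and 12.9 in ABCG1KO. Both ABCG1KO libraries were above all WT libraries, and LysM-DKO overlapped both groups. The difference of ABCG1KO from WT was 1.34 (SE 0.729, adjusted p = 0.252 by edgeR), and LysM-DKO against WT was 0.56 (SE 0.665), with -0.13 without LysM-DKO 2.

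The members differ in how much of their sequence recurs elsewhere, which bears on reads that align to several places. The share of 50-base windows of the main mRNA found in annotated transcripts of a gene that does not overlap it was 74.8% for Ftl1, 52.5% for Ncoa4, 6.59% for Fth1, 1.15% for Slc11a1, 0.504% for Slc11a2 and 0 for Tfrc, Slc40a1 and Cp. Ftl1 shares windows with 15 other genes, 8 of them pseudogenes, including a copy named Gm15590 that is 99.09% identical over 552 bases. Ncoa4 shares them with the processed pseudogene Gm6768 alone, 99.89% identical over 1878 bases of a 3343-base mRNA. Neither copy was analysed here. Among the counted symbols, Fth1, Ftl1 and Fthl17 begin with Fth or Ftl, and Fthl17 had no count, so summing these symbols could change nothing. Of the 15 genes that share windows with Ftl1, 2 are among the counted symbols, and they were not summed. The members called lower in ABCG1KO are the 2 with the most shared sequence, with 25.2% of windows unshared for Ftl1 and 47.5% for Ncoa4. How many reads of shared windows were counted in each library is not known, so these shares do not predict a level.

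**Figure D3:**
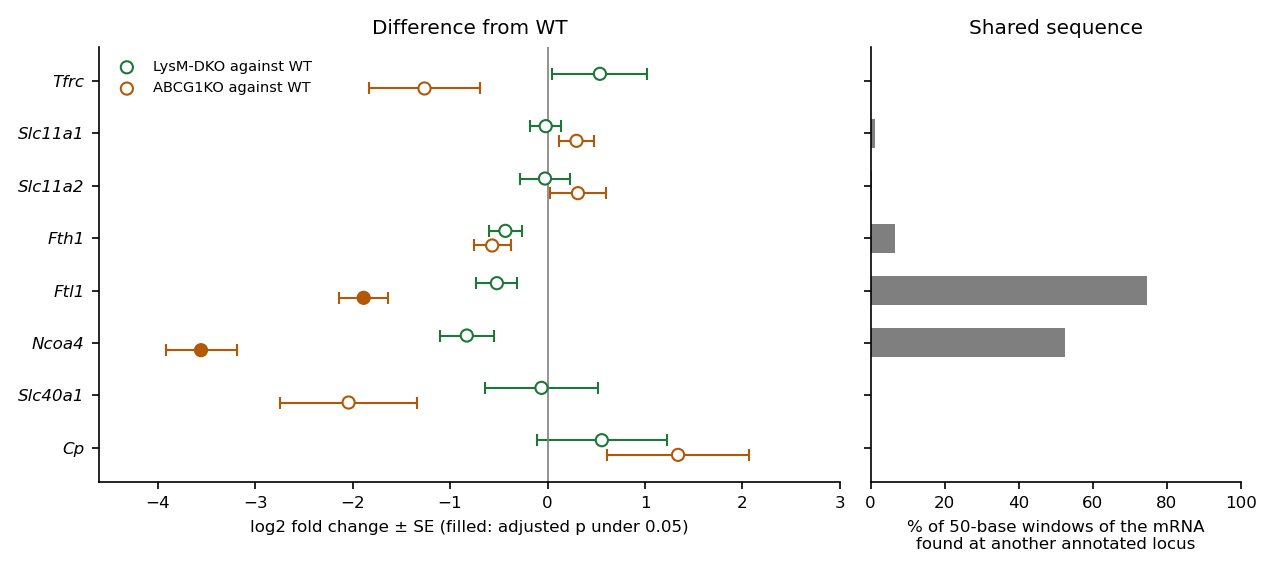
Left, log2 fold change from WT with its SE for each member in LysM-DKO and in ABCG1KO, filled where the adjusted p of edgeR's quasi-likelihood test is under 0.05. Right, the percentage of 50-base windows of the mRNA found at another annotated locus, 74.8% for Ftl1 and 52.5% for Ncoa4.

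Over all genes with a measured mRNA the same comparison went with shared sequence. In ABCG1KO against WT, 6.42% of the 9294 genes without a shared window were called lower and 7.44% higher, whereas 52.7% of the 319 genes with over 40% shared were called lower and 2.51% higher, with a median log2 difference of -1.34. In LysM-DKO against WT those 319 genes had a median of -0.22. Of them 71.5% were below 0, against 45.95% of the genes without a shared window. None of the 319 was called, where 0.0362% of all genes tested were. A fit limited to genes under 1% shared over all their exons (0.660% for Slc11a1 by that measure) left out Ftl1, Ncoa4 and Fth1. It therefore holds no value for the called members, and none of the other 5 was called in any of the 3 comparisons. Of its 10552 genes, 568 were called higher and 620 lower in ABCG1KO against WT. The counts were 494 and 421 in LysM-DKO against ABCG1KO, and 2 and 2 in LysM-DKO against WT. With only 5 members, none called cannot be told from these shares. The part of shared sequence in the values of Ftl1 and Ncoa4 was not tested.

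**Figure D4:**
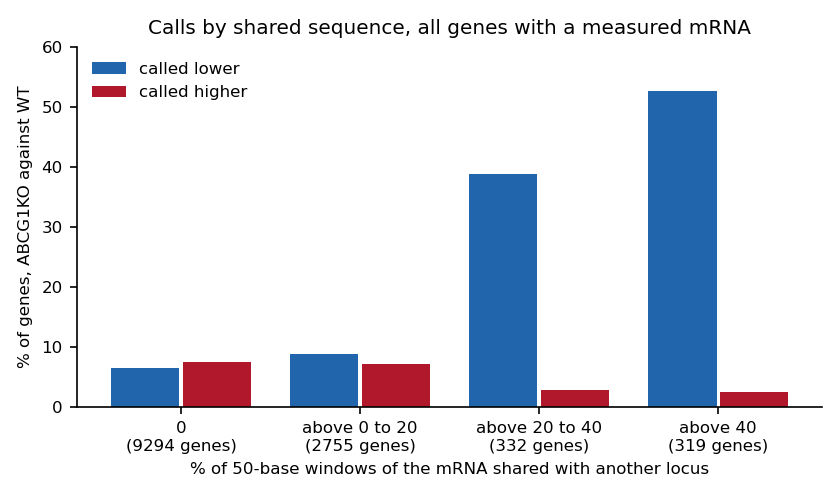
Percentage of genes called lower and higher in ABCG1KO against WT, in 4 classes of the share of 50-base windows found at another annotated locus, with the number of genes under each class. Calls of lower genes run from 6.42% in the class with none to 52.7% above 40%.

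The Ftl1 mRNA also holds, in its coding sequence (chr7:45458121-45458141), all 21 bases of a microRNA whose hairpin genes match ferritin light chain copies. The mature sequence from RefSeq (GRCm38.p6), with its seed in capitals, is shown because its whole length occurs in Ftl1.
miR-692: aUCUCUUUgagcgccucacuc
Mir692-1, whose 109-base hairpin lies at chr17:6895229-6895337 on the − strand and is 94.5% identical to Ftl1 with a longest identical stretch of 35 bases, was picked out after its values were seen. It measured 55.8, 46.6 and 46.8 CPM in WT, 24.4, 21.0 and 32.8 in LysM-DKO and 0 in both ABCG1KO libraries, where 0 allows up to 3 counts, or at most 0.101 CPM. The groups did not overlap, and as the gene was picked for this pattern no test is given. Mir692-2 and Mir692-3 hold the same mature sequence and had 0 counts in every library. The Mir692-2 hairpin is 97.25% identical to Ftl1, with a longest identical stretch of 59 bases. Whether the reads counted at Mir692-1 came from the microRNA or from other RNA with ferritin light chain sequence was not tested. Per 1000 Ftl1 counts it was 2.88 to 3.06 in WT, 2.05 to 2.31 in LysM-DKO and 0 in ABCG1KO.

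Around the members, 68 other iron genes in 7 lists were looked up, 67 had counts to look up and 56 were tested. In LysM-DKO against WT none was called, with a median log2 difference of -0.07 (0.02 over all genes). In ABCG1KO against WT, 7 of 56 rose, 7 fell (7.21% and 8.83% of all genes) and 42 were not called, with a median of -0.07 (0.01 over all genes). In LysM-DKO against ABCG1KO, 5 of 56 were higher and 7 lower (7.76% and 5.64% of all genes). The 14 genes called against WT come from 6 of the 7 lists. The list labelled storage and chaperones had none, but only 4 of its genes were tested, where 16% of all genes were called.

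Among heme-handling genes 3 of 13 rose in ABCG1KO and 1 fell, where 7.21% of all genes rose and 8.83% fell. Hmox1, which opens the heme ring to free its iron, was 544, 712 and 407 CPM in WT and 1327 and 999 in ABCG1KO (log2 difference 1.07, adjusted p = 0.0277 by edgeR), with the groups apart. Cd163, the scavenger receptor for hemoglobin bound to haptoglobin, was 1.82, 5.63 and 1.76 CPM in WT and 55.7 and 26.4 in ABCG1KO. Spic, a transcription factor of macrophages that recycle red blood cells, was at most 1.02 CPM in WT and was 1.85 and 9.20 in ABCG1KO. Mfsd7b, the older symbol of Flvcr1, which exports heme, fell by 1.01 on the log2 scale.

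Hp, haptoglobin itself, was 1 of 5 iron-binding secreted genes and rose from 2.67, 1.91 and 1.04 CPM in WT to 867 and 175 in ABCG1KO (log2 difference 8.13, SE 0.865, adjusted p = 0.00113 by edgeR), beside the Ttr signal given above, whose part was not tested. Hepatocyte albumin, Alb, was at or under 0.0259 CPM in every library.

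Of 8 tested genes of iron uptake, Steap3, a reductase that turns ferric into ferrous iron in endosomes, fell by 1.46 (adjusted p = 0.00874 by edgeR), from 204, 173 and 191 CPM in WT to 61.2 and 76.8 in ABCG1KO. Among the 5 genes of iron sensing, Ireb2, which encodes an iron regulatory protein, rose by 0.59, and Epas1, which encodes the hypoxia factor HIF-2 alpha, fell by 2.02. Epas1 levels were 329, 464 and 331 CPM in WT, 187, 160 and 93.2 in LysM-DKO and 78.1 and 107 in ABCG1KO, and its LysM-DKO difference of -1.35 was not called (adjusted p = 0.215 by edgeR). Hfe, which senses iron status at the cell surface, rose by 0.75.

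Among 18 genes of mitochondrial iron, 1 rose and 4 fell in ABCG1KO, beside the same 7.21% and 8.83% of all genes, and 3 of the 4 are named here. Glrx5, which hands on iron-sulfur clusters, rose from 25.5 to 62.6 CPM (log2 difference 1.3). Lyrm4, a partner of the cluster assembly enzyme, Abcb8, a mitochondrial transporter, and Cpox, an enzyme of heme synthesis, fell by 1.07, 1.08 and 0.64 on the log2 scale. For Steap3, Epas1, Lyrm4 and Abcb8, which fell, no window of the main mRNA was found in the annotated transcripts of another gene, and for Cpox 1.12% were.

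**Figure D5:**
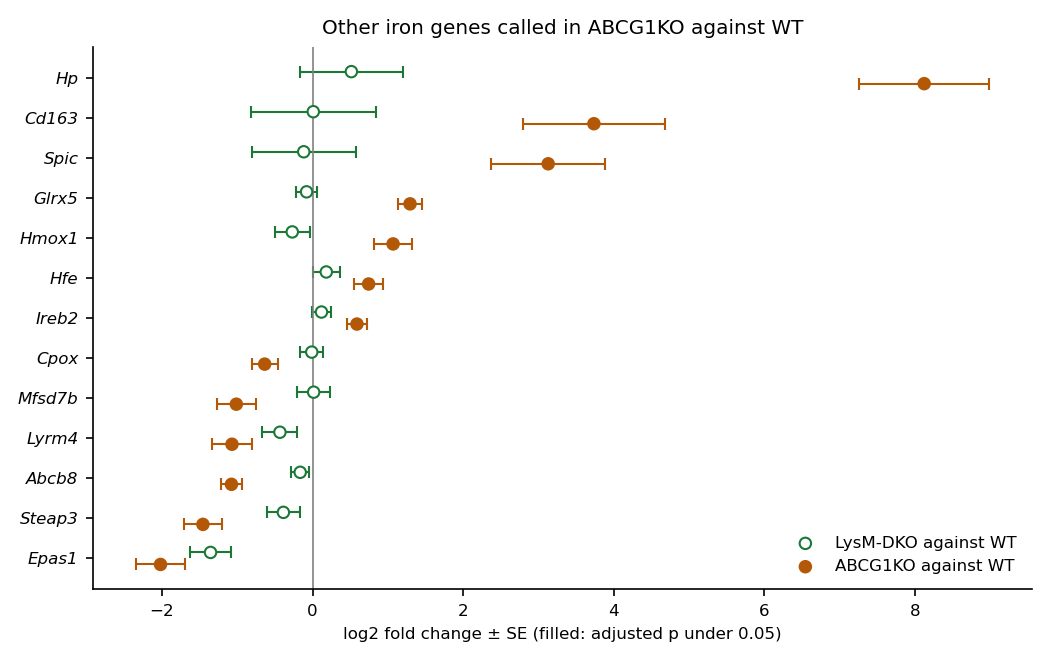
Log2 fold change from WT with its SE, in LysM-DKO and ABCG1KO, for the other iron genes named in the text that were called in ABCG1KO against WT, filled where called. Hp and Cd163 lie farthest to the right and Epas1 and Steap3 farthest to the left.

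The genes whose log2 CPM followed each member most closely over the 8 libraries are given as a description, among 8510 genes with a mean of at least 10 CPM (8511 for Cp). For Ncoa4 they were Vwa5a (Pearson r = 0.993), Cd200 (0.991) and Kctd12b (0.991), which share at most 0.464% of their own sequence with other loci. For Ftl1 they were Ap3s1 (0.993), Cab39l (0.989) and Fdps (0.988), which share 31.8%, 0.669% and 57.3% in that order. Fth1 was nearest Atpif1 (0.974), Tfrc nearest Pip4k2a (0.972) and Slc40a1 nearest Clcn7 (0.971). Slc11a1 was nearest Nkiras2 (0.960), Slc11a2 nearest Usp6nl (0.922) and Cp nearest Il21r (0.979). The 8 points share 3 groups and 1 scaling, and no p is given.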

How the data were processed

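For each of 8 macrophage libraries the authors deposited raw HTSeq counts by gene symbol. The submitters' processing notes name STAR 2.7.9a, TopHat, HTSeq 0.11.2, DESeq2 1.30.1, limma and build mm10, with no roles. The annotation and strand setting are not given in the sources used here, so a gene that overlaps another is uncertain. The counter's special lines stayed out of library sizes and tests (outside genes 4.26% to 13.8%, several genes 0.614% to 0.980%, several places 2.65% to 6.93% of counted reads).

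All 8 libraries entered 1 fit in edgeR 4.0.16 (R 4.3.3) with a term per group, TMM factors, filterByExpr, robust quasi-likelihood and Benjamini-Hochberg adjustment over 13821 genes, and a gene was called at an adjusted p under 0.05. CPM values are relative to the TMM-scaled library size, and errors beside log2 differences are standard errors. Libraries of a group differed beyond sampling noise (chi-square per degree of freedom 88.1 to 159). No genome was used: shared sequence was measured against annotated GENCODE M21 transcripts. The 8 members are named in every comparison, up to 5 called genes from each iron list, and the nearest patterns of each member. The members and lists were chosen with earlier results of these data known. 1 called gene of the lists is not reported here by name.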

Additional observations from a re-analysis of the deposited data

How the results depend on the processing

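Ftl1 and Ncoa4 were called lower in ABCG1KO against WT under all alternatives that tested them, with adjusted p-values up to 0.0239 and 0.00766 by edgeR or DESeq2. The summing of ferritin copies is among these alternatives but repeats the main fit. DESeq2 1.42.0 called 1, 4 and 4 members in LysM-DKO against WT, ABCG1KO against WT and LysM-DKO against ABCG1KO, where edgeR called 0, 2 and 2. It called 301, 3239 and 2982 genes against 5, 2216 and 1853. Leaving out each library in turn gave 0, 2 to 3 and 1 to 3 members and 0 to 8, 853 to 2090 and 561 to 1960 genes. Fitting only the groups compared called 8 genes in LysM-DKO against WT and 948 in LysM-DKO against ABCG1KO, and a minimum of 10 counts in every library called 3 in the former. The fit of genes under 1% shared called 1188 and 915 genes in the ABCG1KO comparisons. Scaling by library size alone called 2074 genes higher and 856 lower in ABCG1KO against WT. It gave 0.090, 0.13 and 0.11 for Slc40a1, Slc11a1 and Slc11a2 in LysM-DKO against WT, which turned from negative.

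Single libraries turned small differences. In LysM-DKO against WT the ranges were -0.26 to 0.91 for Tfrc, -0.41 to 0.34 for Slc40a1, -0.17 to 0.060 for Slc11a1, -0.29 to 0.14 for Slc11a2 and -0.13 to 1.26 for Cp. Slc11a2 ran from -0.089 to 0.62 in ABCG1KO against WT and from -0.66 to 0.063 in LysM-DKO against ABCG1KO. Tfrc was -0.27 in WT and LysM-DKO alone without LysM-DKO 1, an alternative chosen after seeing the data. The Fth1 to Ftl1 log2 ratio ran from -0.011 to 0.22 in LysM-DKO against WT. The Slc40a1 to Tfrc log2 ratio ran from -0.82 to 0.14 there and from -0.27 to 1.5 in LysM-DKO against ABCG1KO. The causes were not tested.

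The labels do not say whether replicate numbers pair the libraries. With each group's mean log2 CPM removed, same-numbered WT and LysM-DKO libraries correlated at 0.03, 0.48 and -0.05. Differently numbered ones ran from -0.33 to 0.27, and these values do not settle the pairing. With the replicate block, 0, 3 and 3 members and 0, 1456 and 1024 genes were called, with Slc40a1 added at -2.48 and 2.41.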
